A study of Rattus norvegicus with 12 samples.

Results

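The immediate early genes Fos (ENSRNOG00000008015), Egr1 (ENSRNOG00000019422), Arc (ENSRNOG00000043465), Junb (ENSRNOG00000042838) and Nr4a1 (ENSRNOG00000007607) were examined in the preoptic area of newborn rats, 5 genes chosen by identifier out of 29516 in the deposited tables. All 5 passed the filter on low values, which left 16310 genes to test. Immediate early genes are transcribed within minutes of a stimulus, without new protein synthesis, when calcium, cAMP or growth factor signals reach factors already bound at their promoters, such as SRF and CREB. In brain tissue their transcripts are widely read as a trace of recent neuronal activity. Fos and Junb encode subunits that pair to form the transcription factor AP-1, Egr1 a zinc finger transcription factor, and Nr4a1 an orphan nuclear receptor. Arc encodes a cytoskeleton-associated protein of dendrites that takes part in the removal of AMPA receptors from synapses.

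In rodents the preoptic area becomes sexually dimorphic in the perinatal period under the influence of testicular hormones. Male and female rats were given vehicle or zebularine, an inhibitor of DNA methyltransferases that is built as an analogue of cytidine. Vehicle animals received DNMSO (as the labels spell it) at 0.1% in saline. Dosing was on postnatal days 0 and 1, and the tissue was collected on postnatal day 2. RNA-seq libraries numbered 12, in 4 groups of 3: females with vehicle or zebularine, and males with vehicle or zebularine. The labels give no strain, dose of zebularine or interval between handling and collection, and do not say whether a library was 1 animal or a pool, so the p-values rest on a library-to-library spread that could be technical.

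Promoters of 3 of the 5 genes, Egr1, Junb and Nr4a1, were found in a table of RefSeq sequences on build GRCr8, and are shown. Each line is the 250 bases before the listed start of the gene, all on the + strand: chr18:26736828-26737077 for Egr1, chr19:40080876-40081125 for Junb and chr7:134259888-134260137 for Nr4a1. Capitals mark matches, on either strand, to the CArG box that SRF binds, to the EGR motif GCGNGGGCG, to the TATA box TATAAA, and to CGTCA, the core of the cAMP response element.
Egr1: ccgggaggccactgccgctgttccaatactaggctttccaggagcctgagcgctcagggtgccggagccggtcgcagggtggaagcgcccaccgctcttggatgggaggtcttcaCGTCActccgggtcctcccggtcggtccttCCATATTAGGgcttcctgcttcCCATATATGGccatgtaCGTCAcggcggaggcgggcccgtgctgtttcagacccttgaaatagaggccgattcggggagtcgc
Junb: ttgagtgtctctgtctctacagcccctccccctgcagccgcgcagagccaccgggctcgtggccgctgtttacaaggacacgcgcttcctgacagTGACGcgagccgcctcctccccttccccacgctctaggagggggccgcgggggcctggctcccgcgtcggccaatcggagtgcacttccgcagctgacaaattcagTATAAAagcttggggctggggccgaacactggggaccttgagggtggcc
Nr4a1: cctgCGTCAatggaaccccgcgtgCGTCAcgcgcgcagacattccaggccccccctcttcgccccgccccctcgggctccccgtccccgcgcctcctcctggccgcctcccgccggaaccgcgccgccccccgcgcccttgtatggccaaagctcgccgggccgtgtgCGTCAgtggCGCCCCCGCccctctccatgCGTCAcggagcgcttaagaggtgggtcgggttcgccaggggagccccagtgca
Egr1 held 2 CArG boxes, beginning at -105 and -83 from the start, and 7 of the 33469 promoters in the table, or 0.0209%, held 2 or more. At least 1 CArG box was in 1.50% of promoters, and neither Junb nor Nr4a1 held one with these letters. The core CGTCA occurred 4 times in Nr4a1, 2 times in Egr1 and 1 time in Junb, against at least 1 time in 18.2% and at least 4 times in 0.173% of all promoters. No window held the full element TGACGTCA (1.59% of promoters), which contains the core, the AP-1 motif TGANTCA (6.34%) or the Nr4a1 motif AAAGGTCA (1.24%). Nr4a1 held 1 match to the EGR motif (4.29% of promoters) and Junb 1 TATA box (12.9%). The core CGTCA was added to the search after the sequences had been seen. CpG, the dinucleotide that DNA methyltransferases act on, occurred 20, 19 and 32 times in Egr1, Junb and Nr4a1, where the median promoter held 5. Of all promoters, 84.9%, 83.3% and 96.4% held no more CpG than these. The core CGTCA itself contains a CpG, and its shares over all promoters were not matched for CpG number. These matches are descriptions of the letters, and no binding or methylation was measured.

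Reads assigned to genes ran from 15851732 to 30475131 per library, a 1.92-fold range, with zebularine male replicate 2 the shallowest and zebularine male replicate 1 the deepest. On the first principal component of all tested genes, zebularine female replicate 3 scored 50.4 and the other 11 libraries between -11.6 and 9.49. In that library the immediate early genes ranked from 4 to 6 among the 12 libraries. Without gene symbols in the files, markers of cell types and of the preoptic area were not analysed here. In bulk tissue, fewer cells expressing a gene and less RNA per cell cannot be told apart.

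Egr1 had the highest level of the 5 genes, in RPKM, which is reads scaled to gene model length and to library depth. It averaged 5.12 ± 1.71 RPKM over the 12 libraries (SD, n = 12). Nr4a1 followed at 2.34 ± 0.394 RPKM, Junb at 1.88 ± 0.606, Fos at 1.87 ± 0.342 and Arc at 1.60 ± 0.348 (SD, n = 12). Egr1 exceeded Nr4a1 in 12 of 12 libraries and Nr4a1 exceeded Junb in 11 of 12. Junb exceeded Fos in 7 of 12 and Fos exceeded Arc in 8 of 12, so the order of these 3 was not separated by their spread. The levels were modest: 39.1% of tested genes lay at or below the mean of Egr1, and between 18.2% and 24.3% at or below those of the other 4. Recovered reads per library, a measure that depends on gene length, ran from 186 to 758 for Egr1, from 41 to 185 for Junb, from 43 to 113 for Fos, from 58 to 219 for Arc and from 77 to 207 for Nr4a1.

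**Figure D1:**
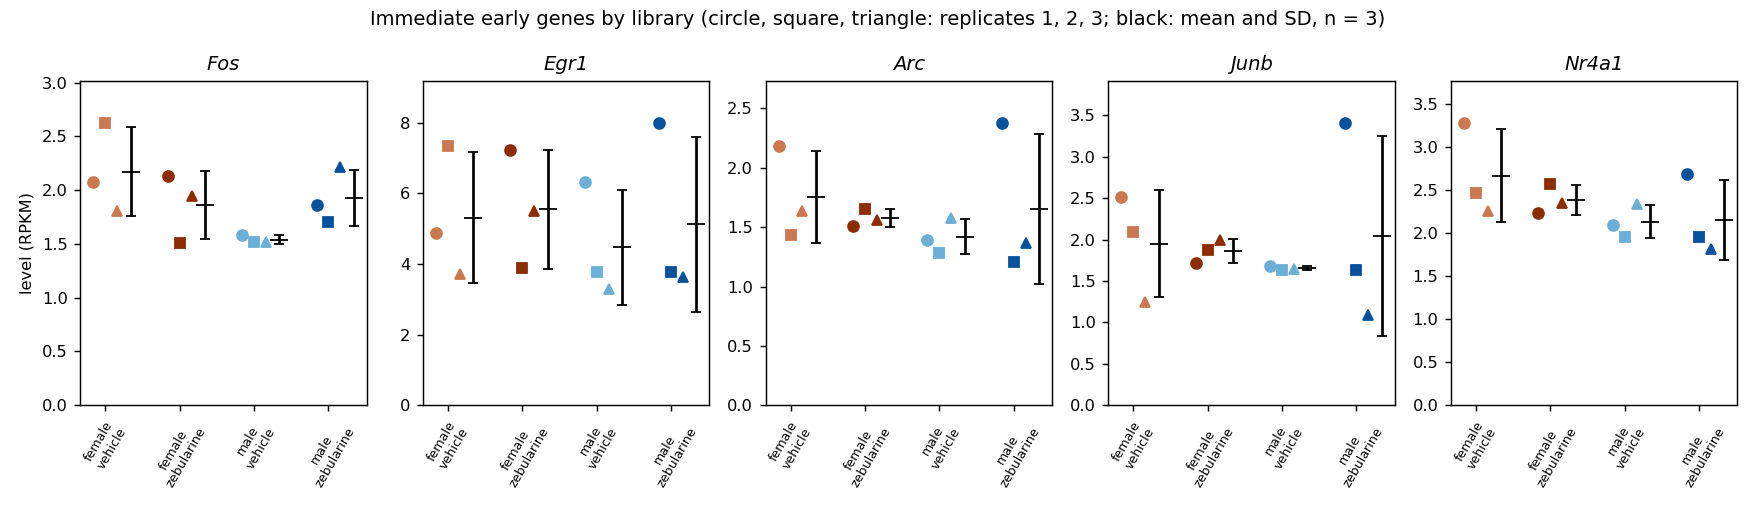
Level in RPKM of each immediate early gene (vertical axes, each from 0) in the 12 libraries, by group on the horizontal axis, with the mean and SD of each group (n = 3). Replicate 1 of the zebularine males is the highest library for Egr1, Arc and Junb, and Fos is tightly grouped in the vehicle males, between 1.51 and 1.59 RPKM. At the 58 to 72 reads of Fos in these libraries, counting error alone is 11.8% to 13.1%, wider than that spread.

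Among the AP-1 genes, Fos, in the order of replicates 1, 2 and 3, stood at 2.08, 2.62 and 1.81 RPKM in vehicle females, 2.13, 1.51 and 1.94 RPKM in zebularine females, 1.59, 1.52 and 1.51 RPKM in vehicle males and 1.86, 1.71 and 2.21 RPKM in zebularine males. The vehicle males had the lowest group mean and lay below every vehicle female and every zebularine male library. Of all tested genes, 3.79% and 8.36% did so in these respective comparisons. The lowest single library was zebularine female replicate 2, and the female groups overlapped. Junb, its partner in AP-1, stood at 2.51, 2.09 and 1.25 RPKM in vehicle females, 1.71, 1.88 and 1.99 RPKM in zebularine females, 1.68, 1.64 and 1.65 RPKM in vehicle males and 3.40, 1.63 and 1.09 RPKM in zebularine males. The zebularine males held both the highest and the lowest Junb value of the 12 libraries, and every other group lay between them.

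Egr1, the zinc finger factor, stood at 4.87, 7.35 and 3.72 RPKM in vehicle females, 7.24, 3.88 and 5.51 RPKM in zebularine females, 6.33, 3.77 and 3.31 RPKM in vehicle males and 7.99, 3.77 and 3.63 RPKM in zebularine males. Each group had at least 1 library above 6 RPKM and at least 1 below 4, so all 4 groups overlapped. Nr4a1, the nuclear receptor, stood at 3.28, 2.47 and 2.26 RPKM in vehicle females, 2.23, 2.57 and 2.36 RPKM in zebularine females, 2.10, 1.96 and 2.34 RPKM in vehicle males and 2.68, 1.96 and 1.82 RPKM in zebularine males. Its groups overlapped, with vehicle female replicate 1 the highest library. Arc, the synaptic effector, stood at 2.18, 1.44 and 1.64 RPKM in vehicle females, 1.51, 1.66 and 1.56 RPKM in zebularine females, 1.39, 1.29 and 1.58 RPKM in vehicle males and 2.37, 1.21 and 1.37 RPKM in zebularine males. Vehicle female replicate 1 and zebularine male replicate 1 were the high libraries for Arc, and its groups overlapped.

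Spread between libraries of the same group was widest for Egr1 and Junb. The SD within groups, on the log2(RPKM + 0.5) scale, was 0.48 for Egr1, 0.39 for Junb, 0.24 for Arc, 0.18 for Nr4a1 and 0.17 for Fos. Among the 4962 tested genes within 2-fold of the level of Egr1, 94.1% had an SD at or below that of Egr1. The same share was 77.3% for Junb, 49.4% for Arc, 41.3% for Nr4a1 and 30.4% for Fos, so the last 3 varied no more than most genes of their level. As a coefficient of variation, the spread within groups was 37.9% for Egr1, which is 6.94 times the 5.47% that counting error alone gives at its read numbers. For Fos it was 15.6%, against 12.1% from counting error, a ratio of 1.28. The ratios for Junb, Arc and Nr4a1 were 3.08, 2.45 and 1.85. Differences between group means took up 49.5% of the variance of Fos, 33.8% of Nr4a1, 13.6% of Arc, 7.24% of Egr1 and 3.42% of Junb, on 3 of 11 degrees of freedom.

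**Figure D2:**
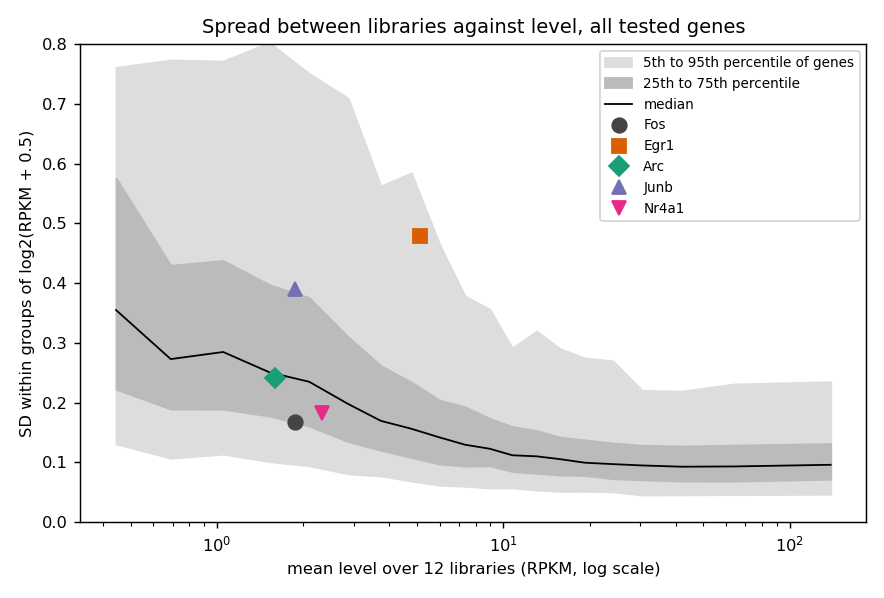
SD within groups of log2(RPKM + 0.5) (vertical axis) against mean level in RPKM (horizontal axis, log scale), with the range of all tested genes in 20 classes of level as bands and the 5 immediate early genes as symbols. Egr1 lies high in the band at its level, with an SD of 0.48, and Fos lies low, at 0.17.

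Zebularine was compared with vehicle to ask whether inhibition of DNA methyltransferases moved these genes. Over both sexes none of the 5 passed, whether by limma on RPKM or with limma-voom applied to the recovered reads, where 0.405% of all tested genes passed by limma. None had an unadjusted p under 0.05 by either tool, where 7.56% of all tested genes did by limma. The average log2 difference, on the log2(RPKM + 0.5) scale, was 0.10 for Egr1 (95% interval -0.42 to 0.63), 0.06 for Junb (-0.39 to 0.50), 0.03 for Fos (-0.19 to 0.26), 0.01 for Arc (-0.29 to 0.31) and -0.06 for Nr4a1 (-0.30 to 0.17). The smallest limma adjusted p was 0.905, for Nr4a1. All 5 intervals left out a log2 difference of 1 or -1 on this scale. The median difference of the 5 genes was 0.035, where that of all tested genes was 0.0051.

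Within females, none of the 5 genes passed by limma or limma-voom, nor at an unadjusted p under 0.05 by either, where 0.0429% of all tested genes passed by limma and 5.4% had an unadjusted p under 0.05. Treated and vehicle females overlapped for each of the 5 genes, where 5.87% of all tested genes stood higher and 3.34% lower in treated females without overlap. The log2 differences ran from -0.18 for Fos (95% interval -0.50 to 0.15) to 0.07 for Egr1 (-0.68 to 0.81), and that of Fos was -0.06 without vehicle female replicate 2. Within males none of the 5 passed by limma or limma-voom either, none had an unadjusted p under 0.05 by either, and 0% of all tested genes passed by limma, with 7.58% at an unadjusted p under 0.05. Fos had the largest male difference, 0.25 ± 0.15 (SE, 95% interval -0.08 to 0.57, limma adjusted p = 0.678), and its 3 treated males stood above its 3 vehicle males without overlap, as did 8.36% of all tested genes, with 5.97% the other way. The male differences of Egr1, Junb and Arc were 0.14, 0.13 and 0.13, and that of Nr4a1 was -0.0012. The first 3 rested on zebularine male replicate 1: without it they were -0.20, -0.23 and -0.10, and that of Fos was 0.26.

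**Figure D3:**
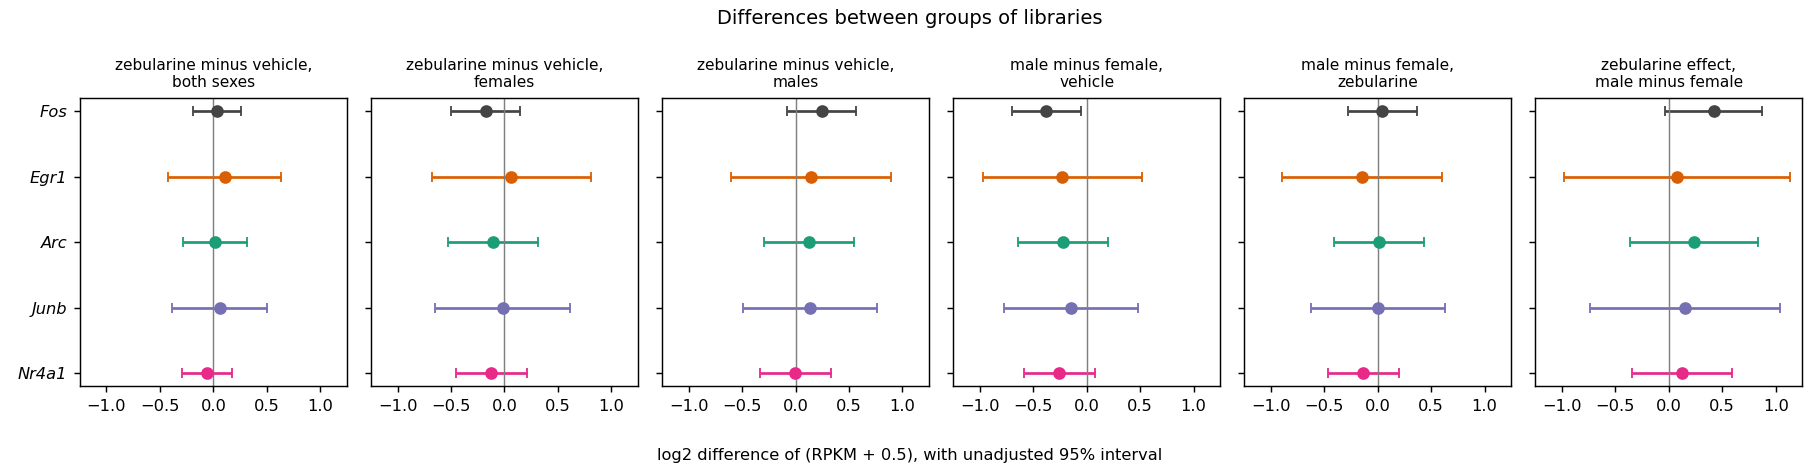
Difference on the log2(RPKM + 0.5) scale (horizontal axes) for each immediate early gene in 6 comparisons of the 12 libraries, as points with 95% intervals not adjusted for the number of genes. All intervals include 0 except that of Fos between the sexes under vehicle, from -0.70 to -0.06, which did not pass after adjustment.

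The sexes were compared under vehicle to describe the state without zebularine. All 5 genes were nominally lower in males, with a median log2 difference of -0.23, where that of all tested genes was -0.0053. None passed by limma or limma-voom, and 0.0123% of all tested genes did by limma. Fos had the smallest p, with a male minus female difference of -0.38 ± 0.15 (SE, limma unadjusted p = 0.0254, adjusted p = 1.00). An unadjusted p under 0.05 was reached by 2.08% of all tested genes. Its vehicle males lay below its vehicle females without overlap, as did 3.79% of all tested genes, with 2.84% the other way. That unadjusted p depended on single libraries of the comparison: leaving out each of the 6 vehicle libraries, it stayed under 0.05 in 3 cases, and was 0.115 without vehicle female replicate 2, 0.0549 without vehicle male replicate 2 and 0.0581 without vehicle male replicate 3. The differences of the other 4 genes were -0.26 for Nr4a1, -0.23 for Egr1, -0.22 for Arc and -0.15 for Junb. Without vehicle female replicate 1, those of Nr4a1, Arc and Egr1 were -0.12, -0.09 and -0.26, and that of Junb was 0.02. Without vehicle female replicate 2, that of Egr1 was 0.01, and the rest were below 0. The 5 genes were measured in the same libraries, so their common direction is not 5 separate observations.

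Under zebularine the male minus female difference was 0.04 for Fos, 0.01 for Arc, 0.0035 for Junb, -0.13 for Nr4a1 and -0.15 for Egr1. None passed by limma or limma-voom and none had an unadjusted p under 0.05, where 0.0307% of all tested genes passed by limma and 11.1% had such a p. Treated males and females overlapped for each of the 5 genes, where 6.95% of all tested genes were higher and 8.47% lower in males without overlap. The difference of the zebularine effect between the sexes was tested directly, and none of the 5 genes passed by limma or limma-voom, where 0% of all tested genes did by limma. None of the 5 had an unadjusted p under 0.05 either, where 4.05% of all tested genes did by limma. Fos came nearest, at 0.42 ± 0.21 (SE, 95% interval -0.03 to 0.87, limma unadjusted p = 0.0666, adjusted p = 0.976). Its unadjusted p was 0.0328 without vehicle female replicate 3 and 0.0430 without zebularine female replicate 1, with limma adjusted p of 0.985 and 0.924. The interval of this difference ran from -0.98 to 1.13 for Egr1 and from -0.74 to 1.04 for Junb. Both include a log2 difference of 1. These comparisons share their vehicle and treated libraries with those above.

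Several of these genes were high or low together in the same libraries. In zebularine male replicate 1, Egr1, Arc and Junb each had their highest value of the 12 libraries and Nr4a1 its second highest, while Fos ranked 6. In that library Junb was 2.50-fold, Egr1 2.16-fold, Arc 1.84-fold and Nr4a1 1.42-fold the mean of the other zebularine males, and Fos 0.948-fold. Vehicle female replicate 1 had the highest Nr4a1 and the next to highest Arc and Junb, at 1.39-fold, 1.42-fold and 1.51-fold the mean of the other vehicle females, and its Egr1 was 0.880-fold. Across all tested genes, deviations from the group means correlated at 0.30 between this library and zebularine male replicate 1. At the low end, all 5 genes were below their own means in vehicle male replicate 2 and in zebularine male replicate 2. Zebularine male replicate 3 had the lowest Junb and Nr4a1 of all and the next to highest Fos.

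**Figure D4:**
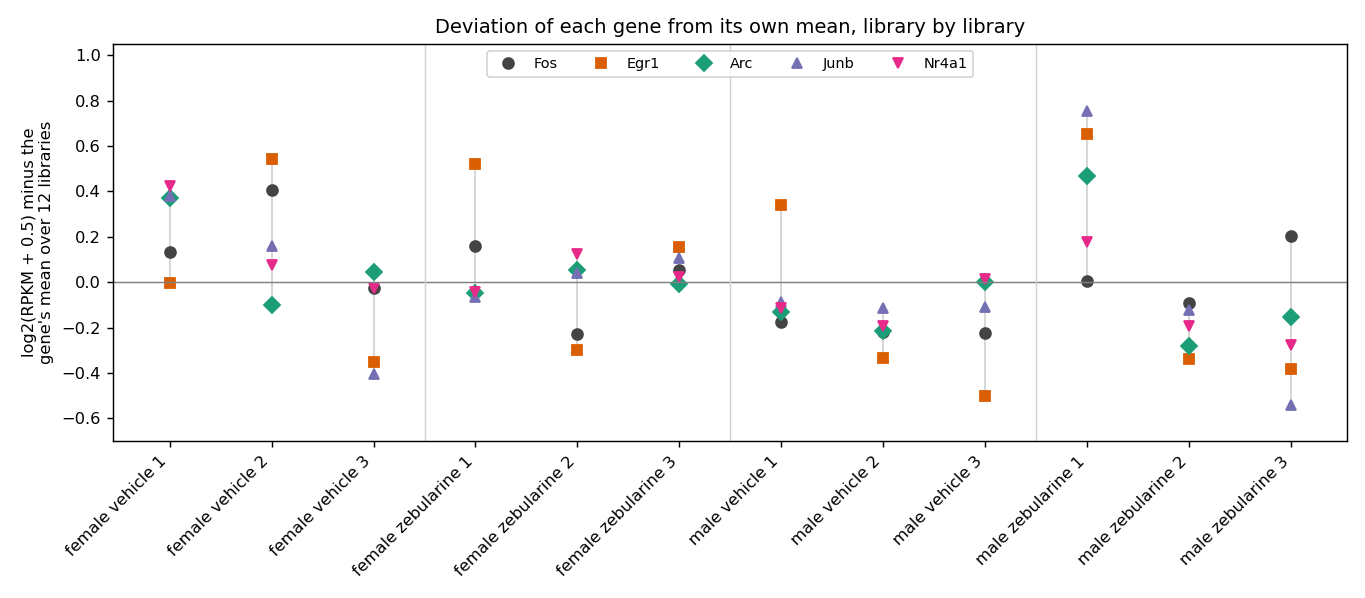
Deviation of log2(RPKM + 0.5) from the gene's mean over the 12 libraries (vertical axis), for each library in turn (horizontal axis), 1 symbol per gene. Egr1, Arc, Junb and Nr4a1 are high together in zebularine male replicate 1, where Junb is 0.75 and Egr1 0.65 above its mean, and Fos is at its mean.

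Joint variation was tested for the 10 pairs of genes over the 12 libraries, with two-sided permutation tests of 100000 resamples and Benjamini-Hochberg adjustment over the 10 pairs. All 10 Pearson coefficients were above 0, with a median of 0.43, and 3 pairs passed, all among Arc, Junb and Nr4a1. Arc and Nr4a1 were the closest pair, with r = 0.85 (permutation p = 0.00037, adjusted p = 0.0037) and rho = 0.87 (permutation p = 0.00037, adjusted p = 0.00265). They lay on the same side of their group means in 12 of 12 libraries. Without zebularine male replicate 1 and vehicle female replicate 1, the libraries farthest from the median of Arc, r was 0.78 (permutation p = 0.00878, adjusted p = 0.0878). With group means removed, r was 0.89 (exact permutation within groups, p = 0.0224, adjusted p = 0.112).

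Junb and Nr4a1 had r = 0.75 (permutation p = 0.00682, adjusted p = 0.0227) and rho = 0.87 (permutation p = 0.00053, adjusted p = 0.00265). Without zebularine male replicates 1 and 3, r was 0.74 (permutation p = 0.0216, adjusted p = 0.108). With group means removed, r was 0.86 (exact permutation within groups, p = 0.00926, adjusted p = 0.0926). The coefficients of both pairs were thus of similar size in these smaller tests, in which neither passed after adjustment.

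Arc and Junb also passed, with r = 0.75 (permutation p = 0.00648, adjusted p = 0.0227), although their rho of 0.62 did not after adjustment (permutation p = 0.0352, adjusted p = 0.088). This relation rested on zebularine male replicate 1 and vehicle female replicate 1: without them r was 0.13 (permutation p = 0.72). With group means removed, r was 0.75 (exact permutation within groups, p = 0.195). Egr1 and Junb had r = 0.64 (permutation p = 0.0223, adjusted p = 0.0558) and rho = 0.79 (permutation p = 0.00336, adjusted p = 0.0112), and without zebularine male replicate 1 and vehicle female replicate 2 r was 0.39 (permutation p = 0.262). Without the first of these alone, r of Egr1 and Junb was 0.47, and without the second alone it was 0.64. With group means removed it was 0.63 (exact permutation within groups, p = 0.131).

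**Figure D5:**
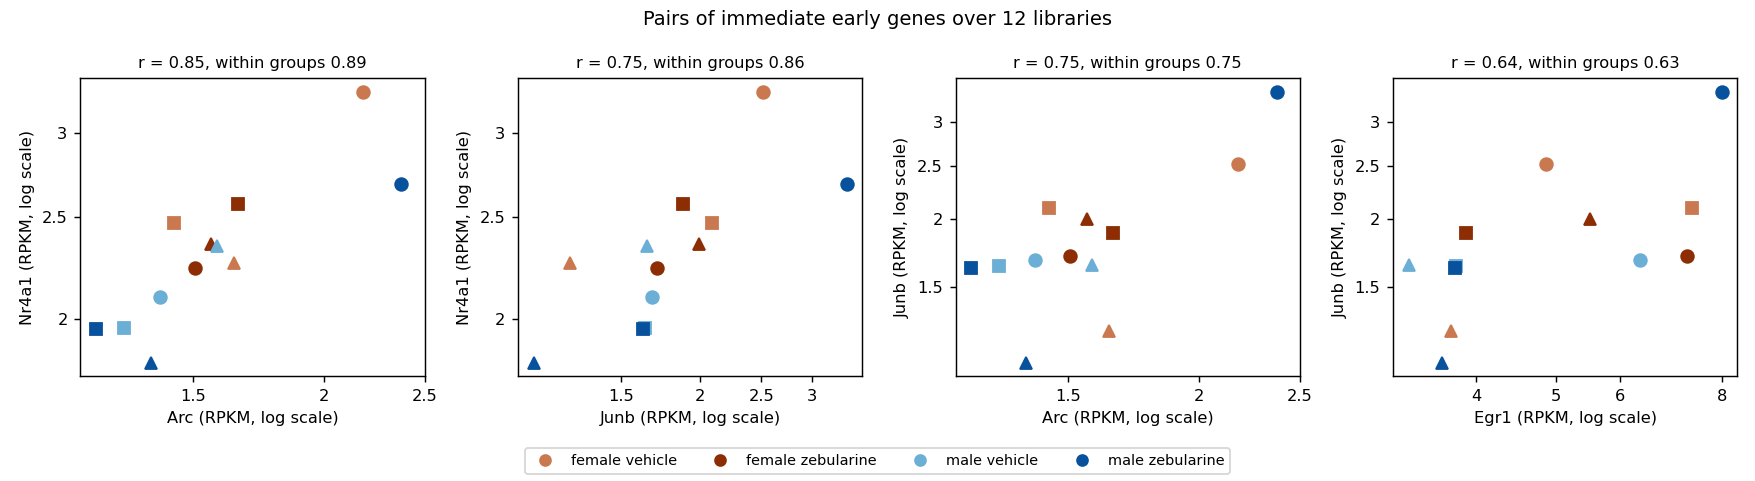
Levels in RPKM (both axes, log scale) of 4 pairs of immediate early genes in the 12 libraries, with colours for groups and circles, squares and triangles for replicates 1, 2 and 3. Arc and Nr4a1 rise together across the range (r = 0.85), whereas for Arc and Junb the trend is carried by the libraries at the top right.

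The coefficients of Fos were weaker and less steady. Its r was 0.11 with Arc, 0.11 with Junb and 0.18 with Nr4a1 (permutation p = 0.739, 0.742 and 0.584), and the corresponding rho values were -0.06, 0.21 and 0.04 (permutation p = 0.869, 0.513 and 0.904). With Egr1 its r was 0.50 (permutation p = 0.0941, adjusted p = 0.188) and rho 0.38 (permutation p = 0.217), and the pair lay on the same side of their group means in 10 of 12 libraries. The weak coefficients of Fos with Arc, Junb and Nr4a1 moved both ways: they were -0.23, -0.02 and -0.22 with group means removed (exact permutation within groups, p = 0.564, 0.939 and 0.604). Without vehicle female replicate 2 and zebularine male replicate 3, the libraries farthest from the median of Fos, they were 0.44, 0.35 and 0.45 (permutation p = 0.205, 0.341 and 0.194). Without zebularine male replicate 3 alone, r was 0.19 with Arc, 0.33 with Junb and 0.38 with Nr4a1. Whether the coefficients of Fos differed from those of the other genes was not tested. The remaining pairs, Egr1 with Arc and with Nr4a1, had r = 0.36 and 0.34 (permutation p = 0.258 and 0.289) and rho = 0.25 and 0.48 (permutation p = 0.43 and 0.121).

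Zebularine male replicate 1, the highest library, was also the deepest, and zebularine male replicate 2, with all 5 genes below their means, the shallowest. The next deepest libraries differed. With 29922600 reads, vehicle male replicate 3 had 2 of the 5 genes above their means, and with 27746157 reads, vehicle male replicate 2 had 0 of 5. Vehicle female replicates 2 and 1, with 27123048 and 25439795 reads, each had 4 of 5. Whether depth bore on these levels was not tested. With reads thinned at random to the depth of the shallowest library, 2 of the 10 pairs passed, Arc with Nr4a1 at r = 0.92 and Egr1 with Junb at r = 0.72 (permutation, adjusted p = 0.0409). Junb with Nr4a1 then had r = 0.53 and Arc with Junb r = 0.66 (permutation, adjusted p = 0.155 and 0.0646), so neither passed in this draw. Thinning adds counting noise of its own, and whether these calls depended on depth was not tested. Leaving out each library in turn, Arc and Nr4a1 passed in 12 of 12 cases with r from 0.79 to 0.91. Junb and Nr4a1 passed in 11 of 12 with r from 0.68 to 0.80, failing without zebularine male replicate 3. Arc and Junb passed in 10 of 12 with r from 0.53 to 0.84, failing at 0.53 without zebularine male replicate 1 and at 0.71 without vehicle female replicate 1.

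How close the 5 genes were to each other was set against all other tested genes, as a description. The correlation of Junb with the mean of the other 4 genes, each scaled to equal variance, was 0.76, higher than for 99.7% of the 16306 genes ranked. Nr4a1 and Arc, at 0.71 and 0.69, each stood above 99.2% of genes, Egr1 at 0.60 above 94.5%, and Fos at 0.27 above 71.6%. Ranked by correlation with Nr4a1, Arc was number 27 of 16309 genes, and ranked by correlation with Arc, Nr4a1 was number 57. Junb was number 232 by correlation with Nr4a1 and number 358 by correlation with Arc. By correlation with Junb, Nr4a1 was number 175 and Arc number 177. For Fos, the nearest of the other 4 genes was Egr1, at number 276.

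Among 14366 genes of at least 1 RPKM, the profile most like the mean of the 5 genes was that of ENSRNOG00000039265, with r = 0.93 over the 12 libraries and levels from 16.6 to 21.5 RPKM. ENSRNOG00000002450 came next at r = 0.88, from 19.9 to 24.9 RPKM. The most opposite were ENSRNOG00000027151, with r = -0.95 and levels from 41.6 to 51.5 RPKM, and ENSRNOG00000023333, with r = -0.91 and levels from 3.99 to 6.83 RPKM. The first pair was highest, and the second pair lowest, in zebularine male replicate 1. These 4 genes have no symbol in the files and are given by identifier. All of these coefficients share the same 12 libraries and were picked as extremes, so they carry no p.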

How the data were processed

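RNA from the preoptic area was sequenced in 12 libraries. Per the submitters' processing notes TopHat was used, with its version not given in the sources used here. The same holds for the counting tool, annotation, build and strand setting, so reads of overlapping genes may be shared. The authors deposited RPKM for 29516 Ensembl identifiers per library. For all 23427 genes above 0 in any library, the RPKM steps gave whole reads (within 0.0001 to 0.01 of a read). Gene model lengths were whole for 99.99% of genes with over 10 reads on average, within 0.05 bases. Replicate libraries differed beyond sampling noise (chi-square over its degrees of freedom 5.94 to 22.0).

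The filter kept genes that reached 0.5 RPKM in 3 or more libraries, and log2(RPKM + 0.5) was fitted with limma 3.58.1 (R 4.3.3; eBayes with trend) as 4 group means over 12 libraries. Two-sided p-values were adjusted by Benjamini-Hochberg across the 16310 genes, with a threshold of 0.05. The fit was tested on simulated data, with less spread between libraries than Egr1 and Junb showed. The log2(RPKM + 0.5) scale understates changes of low genes. Correlations used Python 3.11.15 with numpy 2.4.6; the exact test within groups enumerated 1296 arrangements. Counting error is 1 over the square root of the reads and covers counting only. Alternatives were pseudocounts of 0.1 and 1, no filter, median-ratio scaling, only the groups compared, a replicate block, limma-voom on recovered reads, thinning, and leaving out each library.

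The 5 genes, the lists and the tests were chosen with earlier results of these data known. Other genes were named by a rule: the 2 highest and 2 lowest correlations with the mean of the 5 among genes of at least 1 RPKM. The RefSeq table of GRCr8 matched 0 of the 29516 identifiers, so the lists of other activity-regulated genes and of cell type markers were not analysed here. Fos and Arc were not found among the RefSeq promoters and so are not shown.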

Additional observations from a re-analysis of the deposited data

How the results depend on the processing

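None of the 5 genes passed in any of the 6 comparisons under any of the alternatives run, 0 of 560 tests by limma or limma-voom. The spread of each gene within groups stayed within 1.5 times its value under the 4 settings it was computed for. The sign of the small differences did depend on the library set: it changed in 46 of 360 cases without 1 library (a count that includes libraries outside the comparison, whose removal cannot change it), 11 of them without zebularine male replicate 1, and in 3 of 200 cases under other settings. Those 3 were Nr4a1 in males, at 0.00043 with a pseudocount of 1 and 0.036 with limma-voom, and Junb between the sexes under zebularine, at -0.019 with a pseudocount of 0.1.

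Leaving out each library, the zebularine log2 difference over both sexes ran from -0.014 to 0.094 for Fos, -0.065 to 0.23 for Egr1, -0.10 to 0.084 for Arc, -0.12 to 0.20 for Junb and -0.13 to 0.0047 for Nr4a1. In females it ran from -0.27 to -0.057 for Fos, -0.14 to 0.31 for Egr1, -0.21 to 0.026 for Arc, -0.24 to 0.15 for Junb and -0.22 to 0.011 for Nr4a1. In males it ran from 0.16 to 0.31 for Fos, -0.20 to 0.40 for Egr1, -0.10 to 0.27 for Arc, -0.23 to 0.42 for Junb and -0.14 to 0.089 for Nr4a1. The male minus female difference under vehicle ran from -0.48 to -0.26 for Fos, -0.48 to 0.013 for Egr1, -0.32 to -0.088 for Arc, -0.37 to 0.019 for Junb and -0.35 to -0.12 for Nr4a1. Under zebularine it ran from -0.068 to 0.13 for Fos, -0.49 to 0.049 for Egr1, -0.22 to 0.16 for Arc, -0.36 to 0.29 for Junb and -0.27 to -0.044 for Nr4a1. The difference of the zebularine effect between the sexes ran from 0.30 to 0.52 for Fos, -0.26 to 0.33 for Egr1, 0.0055 to 0.38 for Arc, -0.21 to 0.44 for Junb and -0.017 to 0.21 for Nr4a1. The r of Fos and Arc ran from -0.0015 to 0.26.

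Of the 10 pairs, 3 passed over the 12 libraries, 0 with deviations from the group means and 0 without the 2 libraries farthest from the median. With group means removed, r of Fos was -0.23 with Arc, -0.019 with Junb and -0.22 with Nr4a1. These tests hold fewer arrangements or fewer libraries, and why fewer pairs passed in them was not tested.

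The background counts over all genes moved more. For zebularine over both sexes, 66 genes passed, 9 with the replicate block, and from 11 to 111 without 1 library. In females 7 passed, 4 with a pseudocount of 0.1, 1 with only the groups compared, 1 with the replicate block, 1 with limma-voom, and from 0 to 56 without 1 library. In males 0 passed, 2 with a pseudocount of 0.1, 4 with only the groups compared, and up to 15 without 1 library. Between the sexes under vehicle 2 passed, 5 with no filter and 1 with only the groups compared. Under zebularine 5 passed, 1 with only the groups compared, 3 with the replicate block, 3 with limma-voom, and from 3 to 17 without 1 library. For the difference between the sexes 0 passed, and 2 with no filter.

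Libraries of different groups and different replicate numbers had deviations that correlated from -0.29 to 0.23 across genes. Those of the same number correlated from -0.30 to 0.30, over 0.1 in 5 of 18 cases. Whether replicate numbers marked a batch was not tested. The highest, 0.30, was between vehicle female replicate 1 and zebularine male replicate 1, the high libraries for Arc. The lowest, -0.30, was between zebularine female replicate 1 and zebularine male replicate 1. The replicate block left 0 of the 5 genes called. With replicate numbers also removed from the pairs' correlations, which then have no test, 5 of 10 coefficients were above 0 with a median of 0.14. They were 0.90 for Arc and Nr4a1, 0.83 for Junb and Nr4a1, 0.81 for Arc and Junb, 0.37 for Egr1 and Junb and 0.64 for Fos and Egr1. The others were -0.45 for Fos and Arc, -0.37 for Fos and Nr4a1, -0.10 for Fos and Junb, -0.14 for Egr1 and Nr4a1 and -0.08 for Egr1 and Arc. With 41 to 758 reads per gene and library and 3 libraries per group, differences well under 2-fold could not be told from the spread for Egr1 and Junb.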
